A study of Mus musculus with 12 samples.

Results

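Cyclins A, B, D and E and the kinases Cdk1 and Cdk2 were followed in mouse embryos at the mid 2-cell stage whose Oct4 (Pou5f1) or Ccna2 mRNA had been targeted with an antisense morpholino. The 10 genes were Ccna1, Ccna2, Ccnb1, Ccnb2, Ccnd2, Ccnd3, Ccne1, Ccne2, Cdk1 and Cdk2, and they were chosen by symbol, with no difference between groups in the rule. Every probe set (a group of short probes for 1 transcript) that the array's annotation gave 1 of these symbols and no other was taken. The one with the highest mean log2(intensity + 16) over all arrays stood for its gene. The annotation named 20 probe sets for 9 of the 10 genes, out of 45001 probe sets in the table and 18163 named genes. None carried Ccnb1 as its only symbol, and the 928 probe sets with several symbols were not searched for these genes.

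The 4 groups each held 3 arrays. Oct4-MO embryos had received 0.6 mM of a morpholino against the translational start site of Oct4, and their reference was uninjected embryos of the Oct4-MO experiment. Ccna2-MO embryos had received a morpholino against the 5′ untranslated region of Ccna2, also 0.6 mM per the labels although the study's methods give a higher concentration, and their reference was uninjected embryos of the Ccna2-MO experiment. All embryos came from superovulated F1 (C57BL6xDBA/2) females aged 3 to 5 weeks that had been mated with wild type males, and were collected as 1-cell embryos 17 h after hCG. Each array held RNA from 20 pooled embryos, and RNA equivalent to 10 of them went through 2 rounds of amplification. Each uninjected pool was cultured beside the injected pool of its number and received no injection of any kind, so that within 1 experiment the injection and the targeted gene cannot be told apart. A morpholino acts on translation and need not lower its target mRNA, so the level of Ccna2 mRNA does not test the knockdown. The study counts 3 gene chip experiments for each morpholino. The sources used here do not say whether the 3 pools of a group were collected on separate days, and the p-values reflect the spread among these pools and no more.

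A cyclin switches on a cyclin-dependent kinase and directs it to its substrates, and the pair is turned off again when the cyclin is destroyed, bound by an inhibitor protein or when the kinase is phosphorylated. D cyclins act with Cdk4 and Cdk6 in G1, E cyclins with Cdk2 at the entry into S phase, cyclin A2 with Cdk2 and Cdk1 through S and G2, and B cyclins with Cdk1 at mitosis. In the mouse the first divisions run largely on mRNA stored in the oocyte, and around the 2-cell stage much of this store is degraded while the embryo's own genome becomes active, so an mRNA level at this stage can hold both maternal and embryonic transcripts.

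Array medians lay between 22.7 and 25.5 intensity units, and 39.3 to 42.7% of probe sets on each array were under 16 units, where the added 16 outweighs the measured value. The embryo's identity was checked against its markers. The 9 measured oocyte and maternal genes (of 10 listed) summed to 13757 to 15312 units in Oct4-MO, 14591 to 14905 in their uninjected embryos, 15503 to 17552 in Ccna2-MO and 15999 to 16930 in their uninjected embryos, and the 8 measured genes of 2-cell genome activation (of 10) summed to 11050 to 14162 units in Oct4-MO, 13282 to 14549 in their uninjected embryos, 13714 to 14658 in Ccna2-MO and 12715 to 16374 in their uninjected embryos. Of the 9 measured cumulus and granulosa cell genes (of 10), which mark the follicle cells around an oocyte (removed with hyaluronidase here), the sums were 601 to 835 units in Oct4-MO, 629 to 688 in their uninjected embryos, 596 to 1378 in Ccna2-MO and 693 to 1131 in their uninjected embryos. The gonadotropin receptor Fshr reached at most 5.7 units and the inhibin subunit Inha at most 6.8, while the hormone receptor Amhr2 ranged up to 989 units and the steroid enzyme Cyp11a1 up to 442 units. Cyp11a1 averaged 331 ± 97.9 units in Oct4-MO against 131 ± 41.3 in their uninjected embryos (adjusted p = 0.51), and 216 ± 35.0 in Ccna2-MO against 82.0 ± 86.3 in theirs (adjusted p = 0.18; SD, n = 3 each, limma). Some of these markers differed with injection, in both directions within a list. Trim43a, a gene of 2-cell activation, fell to 1649.9 ± 377 units in Oct4-MO, against 3555 ± 352 in their uninjected embryos (adjusted p = 0.022), and maternal Zar1 averaged 303 ± 5.92 units in Oct4-MO against 73.6 ± 20.2 in theirs (adjusted p = 0.12). In Ccna2-MO Zar1 rose to 392 ± 180.3 units, against 71.5 ± 34.5 in their uninjected embryos (adjusted p = 0.033), and the heat shock gene Hspa1a, of the 2-cell activation list, rose to 568 ± 23.4, against 225 ± 41.7 (adjusted p = 0.027). Members of the same lists went the other way without passing in limma. Hspa1a had a log2 fold change of 0.74 in Oct4-MO (adjusted p = 0.26), and Trim43a -0.38 in Ccna2-MO (adjusted p = 0.24). Maternal Dppa3 had -0.21 in Oct4-MO and -0.13 in Ccna2-MO (adjusted p = 0.23 and 0.31). The part of these markers in the cyclin values was not tested. In pooled embryos, fewer cells with a transcript and less transcript per cell cannot be told apart.

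The genes differed widely in how firmly the arrays measured them. Ccna2, Ccne1 and Cdk1 read at least 992 units on every array, Ccnb2, Ccnd3 and Cdk2 between 100 and 609 units, Ccnd2 and Ccne2 between 30.1 and 123 units, and Ccna1 between 14.6 and 45.7 units. These ranges describe signal over background, and the levels of different probe sets were not set against each other as amounts of mRNA. Of the 20 probe sets, 8 were beside a brighter one of Ccnd2 or Ccnd3, and 7 of those 8 had a median under 16 units. The plot of all named probe sets shows which readings lie in that range.

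**Figure D1:**
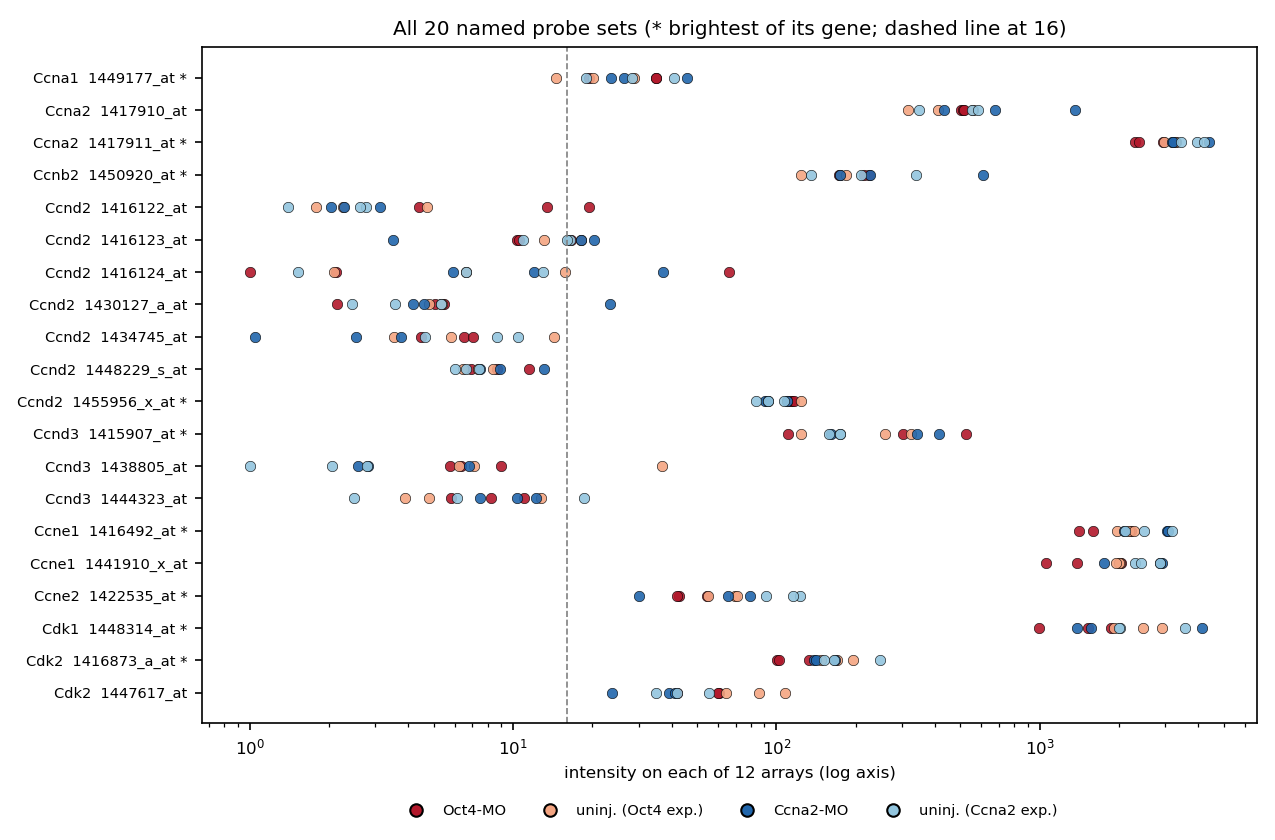
Intensity (log axis) of each of the 20 named probe sets on the 12 arrays, 1 row per probe set, coloured by group, with an asterisk at the brightest of each gene and a dashed line at 16 units. The weaker probe sets of Ccnd2 and Ccnd3 lie mostly left of the line, while both probe sets of Ccna2 and of Ccne1 lie well right of it.

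Cyclin A2, the cyclin of S and G2 phase and the target of 1 of the morpholinos, had its lowest mean level in Oct4-MO embryos, by a difference that did not pass. Ccna2 (chr3:36564865-36573038, GRCm38.p6) read 2932, 2309 and 2391 units in Oct4-MO, against 3293, 2969 and 3259 units in their uninjected embryos. It read 3183, 3205 and 4398 units in Ccna2-MO, against 3949, 3444 and 4222 units in the uninjected embryos of that experiment. All 3 Oct4-MO pools were below all 3 of their uninjected pools, whereas the Ccna2-MO pools overlapped theirs, with pool 3 above every uninjected pool. The means were 2544 ± 338 in Oct4-MO against 3174 ± 178 in uninjected embryos, and 3595 ± 695 in Ccna2-MO against 3871 ± 394 in uninjected embryos (SD, n = 3 each). In limma's moderated fit, the log2 fold change of Ccna2 was -0.32 in Oct4-MO (SE 0.14, 95% interval -0.62 to -0.03), which did not pass after Benjamini-Hochberg adjustment over all 44937 probe sets (adjusted p = 0.49). In Ccna2-MO it was -0.12 (SE 0.14, 95% interval -0.41 to 0.18, adjusted p = 0.76), an interval of 0.751-fold to 1.13-fold.

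A dimmer probe set of the same gene did not follow. On it Ccna2 read 500.4, 511 and 517 units in Oct4-MO against 315, 557 and 409 units in their uninjected embryos, and 1362, 435 and 674 units in Ccna2-MO against 348, 554 and 581 units in theirs. Its log2 fold changes were 0.28 in Oct4-MO (adjusted p = 0.90) and 0.60 in Ccna2-MO (adjusted p = 0.50), so the sign of a Ccna2 difference depended on the probe set, and neither probe set passed.

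Cyclin A1, which in the mouse is known for its role in male meiosis, was close to the limit of measurement. Ccna1 (chr3:55045469-55057634) read 34.8, 19.4 and 34.8 units in Oct4-MO, against 14.6, 20.1 and 28.85 units in their uninjected embryos. It read 26.4, 23.5 and 45.7 units in Ccna2-MO, against 28.3, 18.9 and 40.9 units in theirs. The groups overlapped in both experiments, and in the Ccna2-MO experiment pool 3 was the highest of both groups and pool 2 the lowest of both. The log2 fold changes were 0.29 in Oct4-MO (adjusted p = 0.85) and 0.08 in Ccna2-MO (adjusted p = 0.94).

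**Figure D2:**
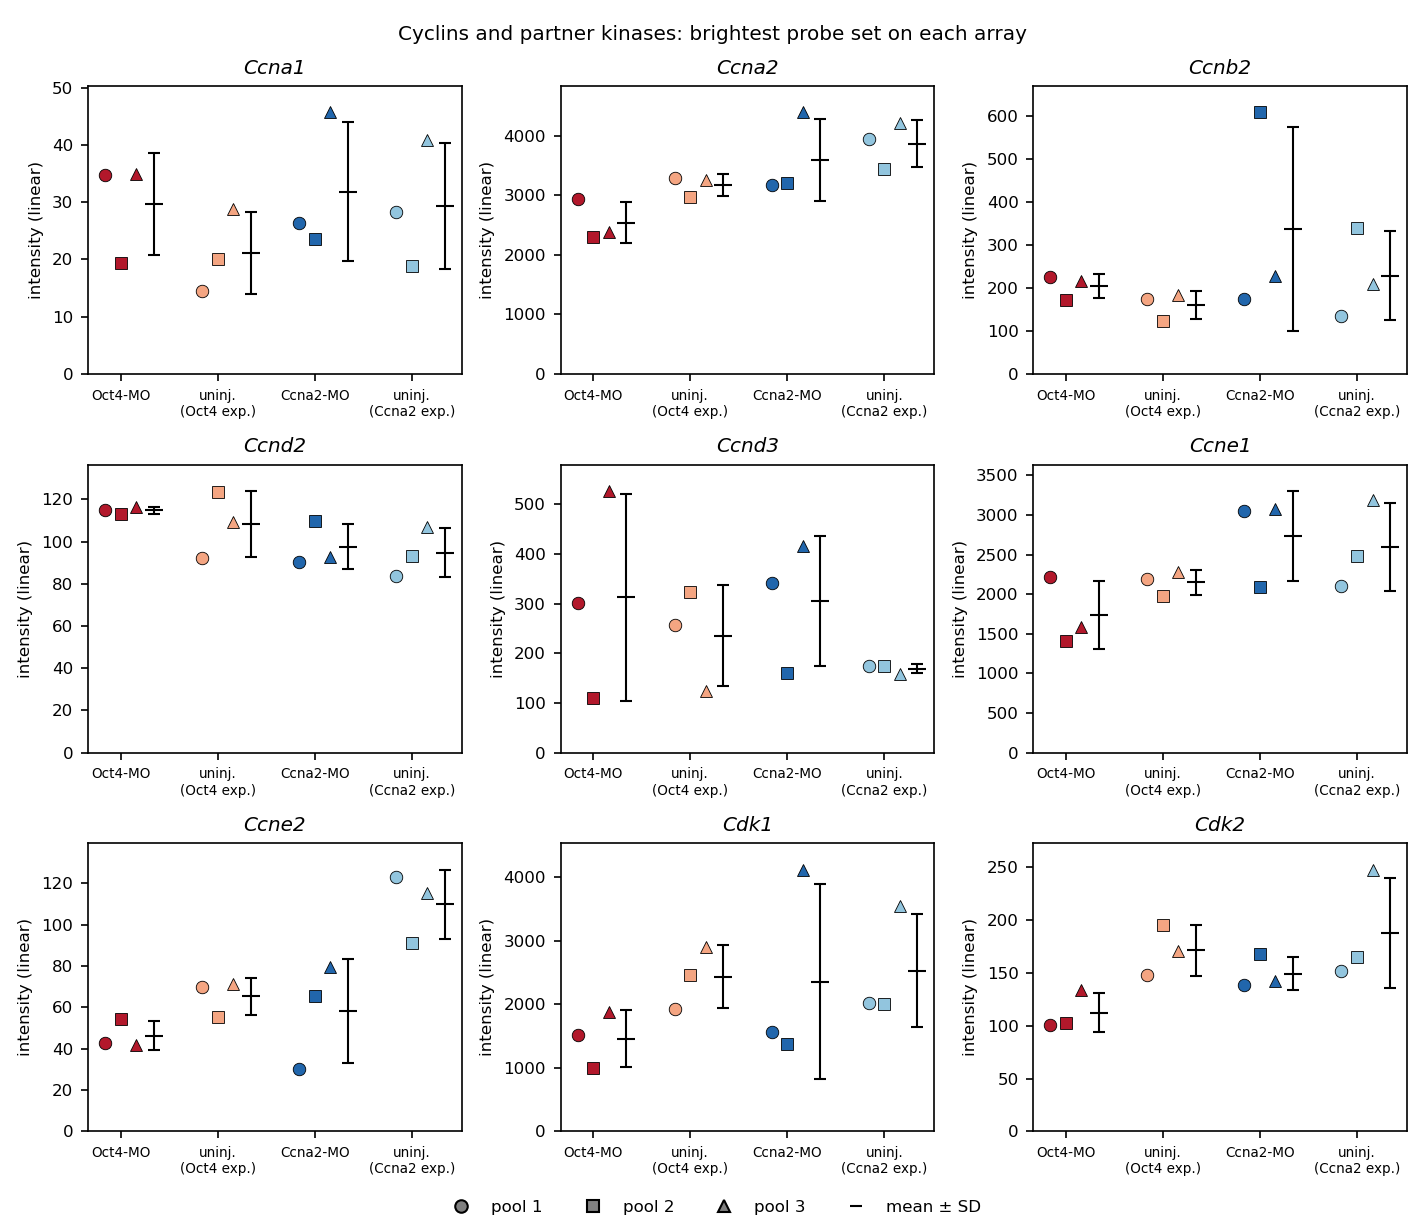
Intensity (linear axes from 0, a separate scale in each panel) of the brightest probe set of the 9 measured genes in the 4 groups, with a point per pool (circle, square and triangle for pools 1, 2 and 3) and a bar for the mean ± SD of n = 3. Ccna2, Ccne2, Cdk1 and Cdk2 have all 3 Oct4-MO pools below their uninjected pools, and Ccne2 also has all 3 Ccna2-MO pools below theirs. The points of Ccnb2, Ccnd3 and Cdk1 are widely spread in Ccna2-MO.

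The partner kinases had more negative log2 fold changes in Oct4-MO than cyclin A2, with wider intervals, and neither passed. Cdk1 (chr10:69335146-69352912), the kinase of cyclins A2 and B that drives mitosis, read 1521, 992 and 1873.5 units in Oct4-MO, against 1923, 2471 and 2909 units in their uninjected embryos. In Ccna2-MO it read 1563, 1384 and 4123 units, against 2019.7, 2007 and 3557 units in theirs. All Oct4-MO pools were below their uninjected pools, the highest of them at 1873.5 against the lowest uninjected at 1923, and pool 3 of the Ccna2-MO experiment was the highest in both of its groups. The log2 fold change of Cdk1 was -0.76 in Oct4-MO (SE 0.38, 95% interval -1.57 to 0.06), a mean of 1462 ± 444 units against 2434 ± 494 units (SD, n = 3 each), and did not pass (adjusted p = 0.59). In Ccna2-MO it was -0.23 (95% interval -1.04 to 0.59, adjusted p = 0.85), and without pool 3 of Ccna2-MO it was -0.72.

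Cdk2 (chr10:128697938-128705051), the partner of cyclins E and A, read 100.9, 102 and 133 units in Oct4-MO, against 148, 195 and 170.5 units in their uninjected embryos. In Ccna2-MO it read 139, 167 and 142 units, against 151, 165 and 248 units in theirs. No Oct4-MO pool reached the lowest uninjected pool, while the Ccna2-MO groups overlapped. The log2 fold change was -0.55 in Oct4-MO (SE 0.26, 95% interval -1.11 to 0.01, adjusted p = 0.55) and -0.28 in Ccna2-MO (95% interval -0.84 to 0.28, adjusted p = 0.69), and the value for Ccna2-MO was -0.08 without pool 3 of its uninjected embryos. A second Cdk2 probe set, between 23.8 and 108 units, gave -0.53 in Oct4-MO (adjusted p = 0.63) and -0.25 in Ccna2-MO (adjusted p = 0.76), so both had the same sign in both experiments.

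Of the E cyclins, which activate Cdk2 at the start of S phase, Ccne2 had separate groups in both experiments and Ccne1 in neither. Ccne2 (chr4:11190433-11204779) read 30.1, 65.2 and 79.3 units in Ccna2-MO, against 123, 91.0 and 115 units in their uninjected embryos, and 42.8, 54.4 and 41.9 units in Oct4-MO, against 69.8, 55.1 and 71.1 units in theirs. All 3 injected pools were below all 3 uninjected pools in both experiments, in the Oct4-MO experiment narrowly, at 54.4 against 55.1 units for pool 2. The log2 fold change of Ccne2 in Ccna2-MO was -0.82 (SE 0.30, 95% interval -1.47 to -0.16), the difference with the smallest p of the 9 genes in either experiment, and did not pass (unadjusted p = 0.018, adjusted p = 0.24, limma). It was -0.51 without pool 1 of Ccna2-MO, which was the lowest of the 12 arrays. In Oct4-MO it was -0.38 (SE 0.30, 95% interval -1.04 to 0.27, adjusted p = 0.79). The lowest uninjected pool of the Ccna2-MO experiment was higher than every pool of the Oct4-MO experiment. The difference between the 2 uninjected groups did not pass either (adjusted p = 0.46, limma).

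Ccne1 (chr7:38097984-38107490) read 2222, 1409 and 1589 units in Oct4-MO, against 2193, 1973 and 2284 units in their uninjected embryos, and 3055, 2084 and 3072 units in Ccna2-MO, against 2102, 2483 and 3192 units in theirs. Pools 2 and 3 of Oct4-MO were below every uninjected pool and pool 1 was among them. The log2 fold change of Ccne1 was -0.33 in Oct4-MO (95% interval -0.76 to 0.11, adjusted p = 0.69) and 0.08 in Ccna2-MO (95% interval -0.36 to 0.51, adjusted p = 0.91). Its second probe set has a suffix that marks probes that can also match other transcripts. It gave -0.46 in Oct4-MO (adjusted p = 0.58) and -0.04 in Ccna2-MO (adjusted p = 0.96).

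Cyclin B2, which binds Cdk1 at mitosis, lay on the other side of 0 from its kinase. Ccnb2 (chr9:70407689-70421554) read 225, 173 and 216 units in Oct4-MO, against 174, 124 and 184 units in their uninjected embryos. It read 175, 609 and 228 units in Ccna2-MO, against 136, 340.1 and 210.0 units in theirs. The groups overlapped in both experiments, yet each injected pool was above the uninjected pool of its own number, and pool 2 of the Ccna2-MO experiment was the highest of both its groups. The log2 fold changes were 0.33 in Oct4-MO (95% interval -0.59 to 1.25, adjusted p = 0.90) and 0.42 in Ccna2-MO (95% interval -0.50 to 1.34, adjusted p = 0.72), and the value for Ccna2-MO became -0.10 without pool 2 of Ccna2-MO. RefSeq lists pseudogenes of Ccnb2 and Ccnd3, and signal from such copies cannot be told apart from the genes by these probe sets.

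For cyclin B1, the main mitotic partner of Cdk1, the probe set read was one that the study's list of genes lower in Oct4-MO names as Ccnb1. That list was chosen on these arrays, so its direction there is not independent evidence, and the probe set stays outside the counts below. It read 1301, 812 and 836 units in Oct4-MO, against 1384, 1399 and 1408 units in their uninjected embryos. In Ccna2-MO it read 1936, 1739.9 and 2103 units, against 1583, 1845 and 2265 units in theirs. The Ccnb1 log2 fold changes were -0.53 in Oct4-MO (adjusted p = 0.36) and 0.03 in Ccna2-MO (adjusted p = 0.96). RefSeq also lists a transcribed pseudogene of Ccnb1 on chromosome 7.

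The D cyclins, the growth factor-responsive cyclins of G1, were the least certain. Ccnd3 (chr17:47505051-47599689) read 302, 111 and 527 units in Oct4-MO, against 258, 324 and 124 units in their uninjected embryos. It read 342, 161 and 416 units in Ccna2-MO, against 175, 174 and 159 units in theirs. The uninjected pools of the Ccna2-MO experiment lay between 159 and 175 units, while the Oct4-MO pools ran from 111 to 527 units, and injected and uninjected groups overlapped in both experiments. The log2 fold change of Ccnd3 was 0.25 in Oct4-MO (95% interval -0.85 to 1.34, adjusted p = 0.95), became -0.23 without pool 3 of Oct4-MO and 0.82 without pool 2. In Ccna2-MO it was 0.70 (95% interval -0.40 to 1.80, adjusted p = 0.59).

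Ccnd2 (chr6:127125162-127152188) was read above background by 1 of its 7 probe sets, whose suffix marks probes that can also match other transcripts. On it the levels were 115, 113 and 116 units in Oct4-MO, against 92.2, 123 and 109 units in their uninjected embryos, and 90.3, 109.7 and 92.8 units in Ccna2-MO, against 83.8, 93.25 and 107 units in theirs. The log2 fold changes were 0.08 in Oct4-MO and 0.04 in Ccna2-MO (adjusted p = 0.97 each). The other 6 probe sets stayed between 1 and 66.15 units, and 5 of them had a median under 16 units, so whether Ccnd2 mRNA was present was not settled by these arrays.

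At the adjusted threshold of 0.05, none of the 9 measured genes passed in either experiment. In Oct4-MO 0 of 9 passed, where 0.0936% of the brightest probe sets of all genes did, and in Ccna2-MO 0 of 9, where 0.93% did. All 9 genes lay on the brighter side of the table's median probe set, and genes of that side are called brighter here. At an unadjusted p under 0.05, limma gave 1 of 9 in Oct4-MO (Ccna2, below 0), beside 10.6% of all genes and 14.1% of the brighter genes. In Ccna2-MO it gave 1 of 9 (Ccne2, below 0), beside 16.7% and 22.5%. With the pairs of pools as a replicate block this count was 2 of 9 in Oct4-MO (Ccna2 and Cdk1), beside 11.8% of all genes, and 1 of 9 in Ccna2-MO (Ccne2), beside 17.8%. The median log2 fold change of the 9 genes was -0.32 in Oct4-MO, with 4 above 0 and 5 below. That of all genes was 0.01 there, and that of the brighter probe sets -0.03. In Ccna2-MO the median of the 9 was 0.04, with 5 above 0 and 4 below. That of all genes was 0.03 there, and that of the brighter probe sets 0.01. In Oct4-MO all 3 pools lay below all 3 uninjected pools for 4 of the 9 (Ccna2, Ccne2, Cdk1 and Cdk2), a separation shown in this direction by 8.4% of all probe sets and by 12.5% of genes on the brighter side of the table's median probe set. In Ccna2-MO this held for 1 of 9 (Ccne2), where 8.27% of all probe sets and 12.2% of the brighter genes showed it. These counts are descriptions of a list of 9, and no test was made over it.

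**Figure D3:**
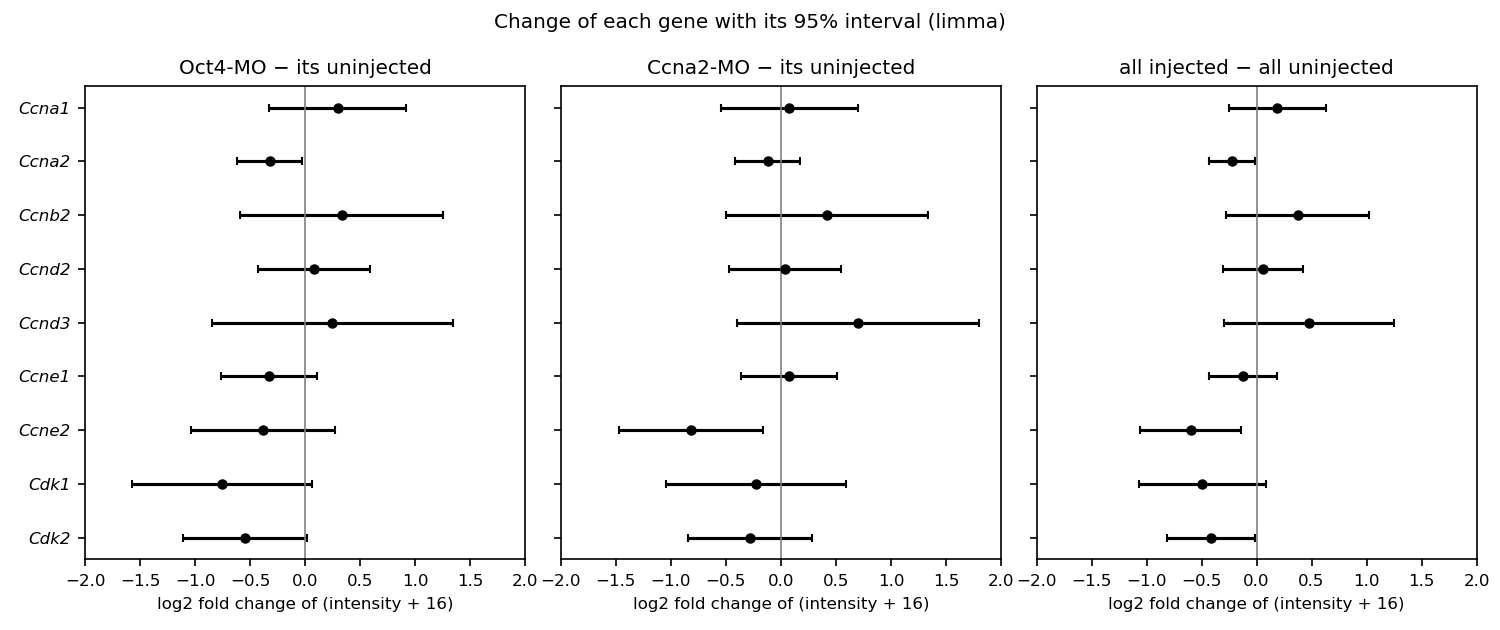
Log2 fold change of intensity + 16 (horizontal axis) of the 9 genes with its 95% interval from limma, for Oct4-MO minus its uninjected embryos, Ccna2-MO minus its uninjected embryos, and all injected minus all uninjected embryos (n = 3, 3 and 6 per group). Intervals that leave out 0 are those of Ccna2 in Oct4-MO, of Ccne2 in Ccna2-MO, and of Ccna2, Ccne2 and Cdk2 over all injected embryos, none of which passed after adjustment.

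Whether a gene answered differently to the morpholinos was tested as the Ccna2-MO change minus the Oct4-MO change. For none of the 9 genes did this difference pass, and at an unadjusted p under 0.05 limma also gave 0 of 9, where 0% of all genes passed the adjusted threshold and 7.11% the unadjusted one. The log2 differences ran from -0.43 for Ccne2 (95% interval -1.36 to 0.49) to 0.53 for Cdk1 (95% interval -0.63 to 1.68), with adjusted p from 0.83 to 0.99. Both ends rested on single pools, since the difference was 0.04 for Cdk1 without pool 3 of Ccna2-MO and -0.12 for Ccne2 without pool 1 of Ccna2-MO. For cyclin A2 the difference was 0.21 (95% interval -0.21 to 0.62). These intervals are wide enough to hold changes as large as those seen within either experiment, and the fit shares 1 estimate of spread over the 4 groups.

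The uninjected embryos of the experiments were compared to describe how far cyclin levels differ between the experiments without injection. Uninjected embryos of the Ccna2-MO experiment had a Ccna2 level 0.28 higher on the log2 scale than those of the Oct4-MO experiment (95% interval -0.01 to 0.58, adjusted p = 0.46), and a Ccne2 level 0.63 higher (95% interval -0.03 to 1.28, adjusted p = 0.46). For both genes the groups did not overlap, 2 of 9 genes where 10.3% of all probe sets separated in this direction. None of the 9 passed the adjusted threshold, where 0.116% of genes did, and none had an unadjusted p under 0.05 in limma, where 12% of genes did. The Ccna2 difference between these untreated groups was close in size to the -0.32 between Oct4-MO and its own uninjected embryos. It lies between experiments, however, and does not enter that comparison. Within the Oct4-MO experiment the SD of Ccna2 on the log2 scale was 0.08 among uninjected pools and 0.18 among Oct4-MO pools. The second Cdk2 probe set read 41.9, 55.6 and 34.8 units in uninjected embryos of the Ccna2-MO experiment, against 85.7, 64.5 and 108 units in those of the Oct4-MO experiment (log2 difference -0.76, adjusted p = 0.33), while the brighter Cdk2 probe set differed by 0.10.

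Over both experiments, Ccne2 was the only one of the 9 genes below its uninjected pool in every pair, and Ccnb2 the only one above it in every pair. All 6 injected pools together against all 6 uninjected pools gave Ccne2 a log2 fold change of -0.60 (SE 0.21, 95% interval -1.06 to -0.14, adjusted p = 0.18), Ccna2 -0.22 (SE 0.096, 95% interval -0.43 to -0.01, adjusted p = 0.29) and Cdk2 -0.41 (SE 0.18, 95% interval -0.81 to -0.02, adjusted p = 0.30). These 3 of 9 had an unadjusted p under 0.05 in limma, where 18.7% of all genes and 25.9% of the brighter genes did. After adjustment 0 of 9 passed, where 3.22% of all genes did. With the replicate block 3 of 9 had such a p, where 19.7% of genes did, with Cdk1 (unadjusted p = 0.0070) in the place of Cdk2 (unadjusted p = 0.069). For all 9 genes the groups of 6 overlapped, and 1.53% of all probe sets and 3.01% of the brighter genes had groups that did not.

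Within pairs of pools, Ccne2 was lower in the injected pool in 6 of 6 pairs, with ratios of 0.245 to 0.986 and a median of 0.650. Ccnb2 was higher in the injected pool in 6 of 6 pairs, with ratios of 1.08 to 1.79 and a median of 1.29. These 2 of 9 genes were 22.2% of those measured, and a common direction in 6 of 6 pairs was found in 12.1% of all genes. Ccna2, Cdk1 and Cdk2 were each lower in 5 of 6 pairs, with median ratios of 0.848, 0.732 and 0.732. For Ccna2 and Cdk1 the exception was pool 3 of the Ccna2-MO experiment, and for Cdk2 it was pool 2 of that experiment, at a ratio of 1.01. Ccnd3 had pair ratios from 0.342 to 4.24 and no common direction.

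**Figure D4:**
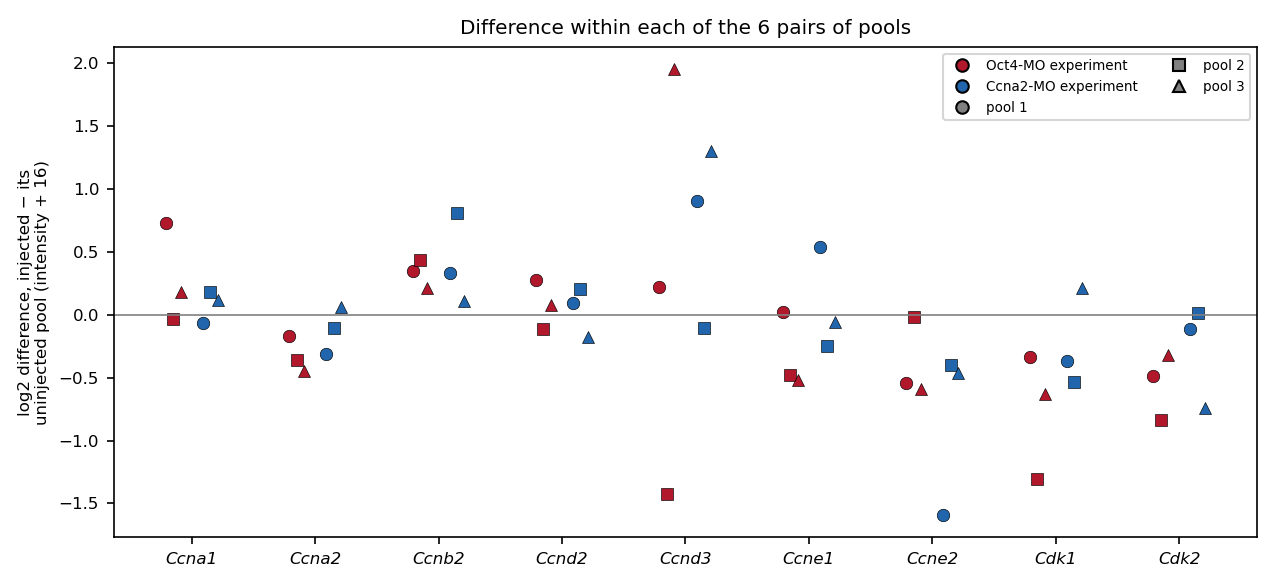
Log2 difference of intensity + 16 between each injected pool and the uninjected pool of its number (vertical axis) for the 9 genes, red for the Oct4-MO experiment and blue for the Ccna2-MO experiment, with circle, square and triangle for pools 1, 2 and 3. All 6 points lie below 0 for Ccne2 and above 0 for Ccnb2, and those of Ccnd3 spread from -1.42 to 1.95.

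The promoters of Cdk1, Ccnb2 and Ccnb1 are described here. The cell cycle homology region (CHR) and the CCAAT box are known elements of genes transcribed in G2 and mitosis. The MuvB complexes read the former and NF-Y the latter. RefSeq promoters (GRCm38.p6, 250 bases before to 50 after each start) were given for 7 of the 10 genes. The letters TTTGAA on either strand were found in 17.9% of the 32851 promoters of this length, CCAAT on either strand in 37.4%, and both in 6.95%, with no overlapping matches among these genes. Cdk1 held 2 TTTGAA and 3 CCAAT matches and Ccnb2 held 2 and 3, whereas Ccnb1 held 0 and 2. The windows are of 30 bases on the gene's own strand, 5′ to 3′, with the matched letters in capitals (ATTGG is CCAAT read on the other strand).
Cdk1 CHR, chr10:69352910-69352939, minus strand: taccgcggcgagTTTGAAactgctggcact
Cdk1 CCAAT, chr10:69352943-69352972, minus strand: acgtgcaatcggATTGGcggatcccgggag
Ccnb2 CHR, chr9:70421533-70421562, minus strand: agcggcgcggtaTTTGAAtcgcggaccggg
Ccnb2 CCAAT, chr9:70421591-70421620, minus strand: cttccagtctagCCAATgggttgcgcgcgc
Ccnb1 CCAAT, chr13:100786536-100786565, minus strand: gccacgaactggCCAATgaggagcgagcgg
A match is a run of letters and not a measured site. The Ccnb2 CHR match shown lies after the gene start, and its other CHR match lies 167 bases before it. Cdk1 and Ccnb2 each held both kinds of letters, and their log2 fold changes in Oct4-MO were -0.76 and 0.33, neither of which passed. Whether the letters bear on these levels was not tested.

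The genes whose profile over the 12 arrays was most like that of Ccna2 were looked for among 11416 brighter genes, by the mean absolute difference of centred log2 values. The nearest were Eif5, a translation initiation factor (0.083), Rps20, a ribosomal protein (0.092), Set, a histone chaperone (0.093), Gdi2, which holds Rab proteins (0.095), and Fau, a ribosomal protein precursor (0.096). This measure favours genes that vary little. Of the cyclins and kinases, Ccne1 came nearest at 0.136 and rank 55, then Cdk2 at 0.223 and rank 687, and Ccnd3 was farthest at 0.624 and rank 9617. The kinase Cdk1 stood at 0.369 and rank 3968, farther from Ccna2 than Ccne1, Cdk2, Ccna1, Ccne2 and Ccnd2 were.

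The proteins that regulate the cyclins were described through 11 lists of 91 genes, of which 89 had a named probe set. Among these, the probe sets of Cdk4, Wee2, Cdc25c, Anapc5 and Rbbp4 carry the suffix of probes that can also match other transcripts. No gene of these lists passed in either experiment. Most genes named below were picked for a small p, which favours groups that do not overlap. Such groups, in either direction, were shown by 22.8% of the brighter genes in Oct4-MO and 23.7% in Ccna2-MO. In Oct4-MO limma gave 5 higher and 8 lower at an unadjusted p under 0.05, 14.6% of the 89, where 10.6% of all genes and 14.1% of the brighter genes did (85 of the 89 were among these). In Ccna2-MO it gave 14 higher and 11 lower, 28.1% of the 89, where 16.7% of all genes and 22.5% of the brighter genes did. The median log2 fold change over the 89 genes was -0.06 in Oct4-MO and -0.11 in Ccna2-MO, where that of all genes was 0.01 and 0.03. That of the brighter probe sets was -0.03 and 0.01.

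Genes of cyclin A and B destruction lay mostly below 0 in both experiments, with exceptions, and the share of all genes below 0 was not counted. The median log2 fold change of all genes was 0.01 in Oct4-MO and 0.03 in Ccna2-MO, and that of the brighter probe sets -0.03 and 0.01. The anaphase-promoting complex list, the ubiquitin ligase that ends mitosis by marking these cyclins, had 14 of 16 genes below 0 in Oct4-MO (median -0.28) and 12 of 16 in Ccna2-MO (median -0.25). Its subunit Anapc7 read 218, 134 and 74.3 units in Oct4-MO, against 353, 287 and 205 units in their uninjected embryos, and 102, 77.6 and 169 units in Ccna2-MO, against 374, 329 and 325 units in theirs. The Anapc7 groups did not overlap in Ccna2-MO, where its log2 fold change was -1.50 (adjusted p = 0.085), the lowest adjusted p of the lists, and they overlapped by a single pool in Oct4-MO at -0.99 (adjusted p = 0.41). Ube2c, the ubiquitin-conjugating enzyme of that complex, read 1583, 2064 and 2453 units in Ccna2-MO, against 3079, 3096 and 3133 units in their uninjected embryos, a log2 fold change of -0.63 (adjusted p = 0.097), with -0.30 in Oct4-MO (adjusted p = 0.63). Other subunits lay above 0 in Ccna2-MO, with log2 fold changes of 1.20 for Cdc16 (adjusted p = 0.10) and 0.75 for Anapc5 (adjusted p = 0.22), both named after their values were seen. At an unadjusted p under 0.05 in limma the list had 2 higher and 3 lower in Ccna2-MO, 31.2% of the 16. There 16.7% of all genes and 22.5% of the brighter genes were past it, and all 16 are among the brighter genes. In Oct4-MO the list had 1 lower, 6.25%, where 10.6% of all genes and 14.1% of the brighter genes were past it.

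Inhibitors and activating enzymes of the kinases gave values of both signs. Among CDK inhibitors (list median 0.32 in Oct4-MO and -0.14 in Ccna2-MO), Cdkn1b, which encodes p27 and holds cyclin E and A complexes inactive, read 219, 169 and 173 units in Oct4-MO, against 56.3, 89.6 and 106 units in their uninjected embryos. Every Oct4-MO pool of Cdkn1b was above its uninjected pools, and the log2 fold change of 1.05 did not pass (adjusted p = 0.34). Cdkn2d, an inhibitor of Cdk4 and Cdk6, had -0.52 in Oct4-MO and -0.68 in Ccna2-MO, and neither passed. Cdkn1a, which encodes p21, read 115, 186 and 467 units in Ccna2-MO, against 201, 1182 and 444 units in their uninjected embryos. Its log2 fold change of -1.07 there did not pass (adjusted p = 0.44) and was -0.43 without the uninjected pool at 1182 units. The G1 kinases Cdk4 and Cdk6 had log2 fold changes of 0.26 and 0.11 in Oct4-MO and of -0.35 and -0.32 in Ccna2-MO. The kinase that activates Cdk1 and Cdk2 had all 3 genes below 0 in Ccna2-MO (median -0.86), with -1.13 for its cyclin Ccnh and -0.86 for Cdk7, and in Oct4-MO Cdk7 had -0.67 and its assembly factor Mnat1 -0.31, while Ccnh had 0.28.

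Cdc25 phosphatases, which remove the inhibitory phosphates of Cdk1 and Cdk2, included the largest value above 0 of their list. Cdc25b read 1417, 985 and 588 units in Ccna2-MO, against 577, 564 and 362 units in their uninjected embryos, groups that did not overlap, with a log2 fold change of 0.91 (adjusted p = 0.15). Wee2, the oocyte kinase that adds an inhibitory phosphate to Cdk1, had 0.44 in Ccna2-MO (adjusted p = 0.26). In Oct4-MO Cdc25a had 0.59 and Cdc25c -0.83 (adjusted p = 0.47 and 0.45). The small Cdk-binding subunits Cks1b and Cks2 had 0.13 and 0.09 in Oct4-MO, and 0.31 and 0.08 in Ccna2-MO.

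Other destruction, transcription and translation factors were as mixed. The SCF list is named after the ligase that marks cyclin E and p27. Of its genes in Oct4-MO, Skp1 had 0.34 and Cul3, which is not an SCF subunit, had -0.48, while the SCF cullin Cul1 had 0.001. In Ccna2-MO Skp1 had 0.61 and the p27 receptor Skp2 -0.57 (adjusted p = 0.19 and 0.28). Among Rb and E2F genes, which gate the transcription of cyclins E and A, the Rb relative Rbl1 had -0.58 in Oct4-MO and 0.78 in Ccna2-MO, E2f2 had 0.46 in Oct4-MO, and the E2F partner Tfdp2 had -0.69 in Ccna2-MO, none of which passed. Of the 10 activators of cyclin genes, 1 was higher and 3 were lower at an unadjusted p under 0.05 in Oct4-MO, where 10.6% of all genes and 14.1% of the brighter genes were past it, and 1 of 10 in Ccna2-MO, where 16.7% and 22.5% were. Among them in Oct4-MO were -0.84 for Lin9 and 0.74 for Lin37, both MuvB subunits. In Ccna2-MO the MuvB subunits Lin52 and Rbbp4 had -1.37 and -0.40.

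Factors that act on the translation of stored mRNA had a list median of -0.11 in Oct4-MO and 0.52 in Ccna2-MO. Ybx2, a protein that stabilises mRNA in oocytes, read 1845, 2052 and 1775 units in Ccna2-MO, against 1250.0, 1576 and 1155 units in their uninjected embryos, and 1468, 1486 and 1568 units in Oct4-MO, against 1264, 1313 and 1189 units in theirs. Its injected and uninjected pools did not overlap in either experiment, at log2 fold changes of 0.52 in Ccna2-MO (adjusted p = 0.095) and 0.26 in Oct4-MO (adjusted p = 0.59). A separation in either direction was shown by 23.7% of the brighter genes in Ccna2-MO and by 22.8% in Oct4-MO. The RNA-binding protein Msi2 had 1.45 in Ccna2-MO (adjusted p = 0.24), and Cpeb1, which controls the poly(A) tails of cyclin mRNAs, had -0.70 in Oct4-MO (adjusted p = 0.57). Among the 16 other cyclins, Ccni and Ccnt2 had 0.92 and 0.63 in Ccna2-MO (adjusted p = 0.10 and 0.098), and Ccnf and Ccnl2 had -0.72 and -0.38 in Oct4-MO (adjusted p = 0.40 and 0.42).

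**Figure D5:**
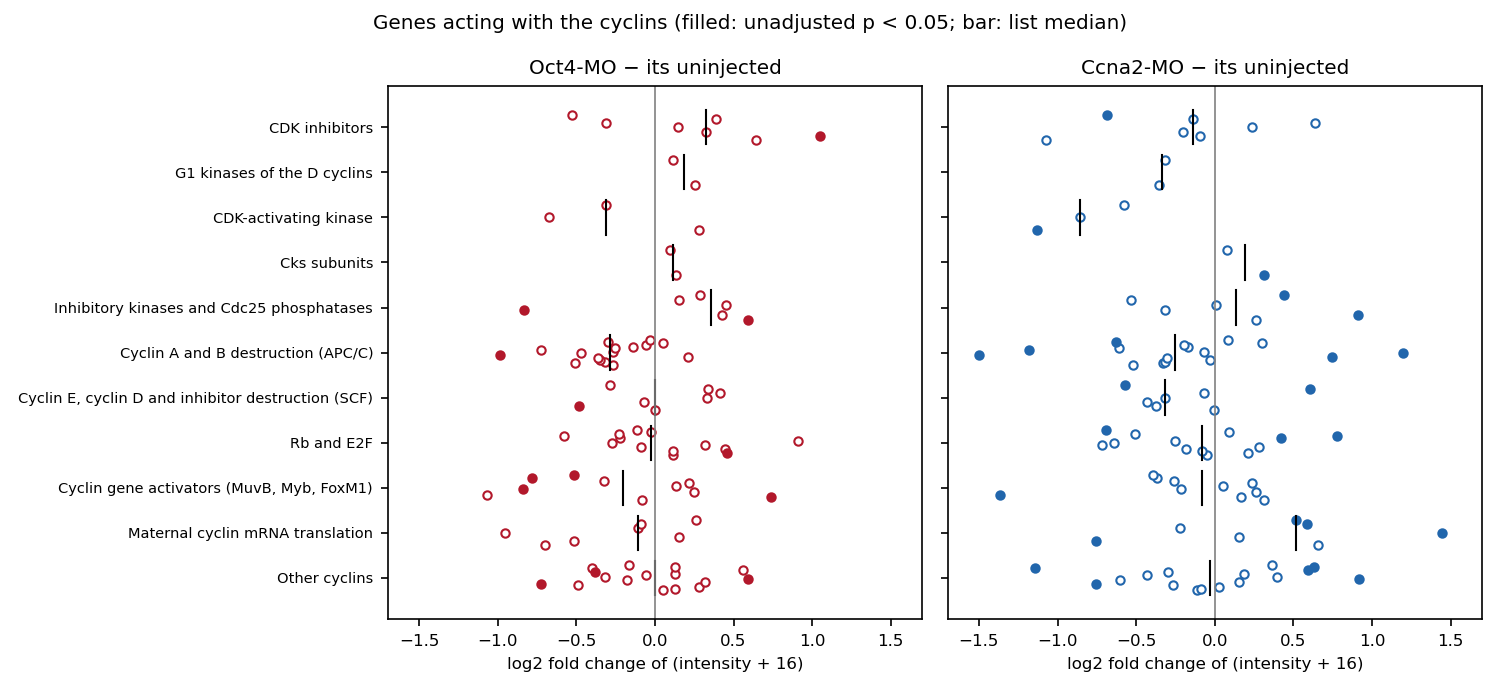
Log2 fold change of intensity + 16 (horizontal axis) of each gene in the 11 lists of cyclin regulators, in Oct4-MO and in Ccna2-MO against their uninjected embryos, filled where the unadjusted p was under 0.05, with a bar at each list's median. No gene passed the adjusted threshold, and the APC/C list has 14 of 16 genes below 0 in Oct4-MO and 12 of 16 in Ccna2-MO. The share of all genes below 0 was not counted.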

How the data were processed

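Affymetrix GeneChip mouse genome arrays were read as the authors deposited them, as linear intensity values that they had normalized with dChip. The version and options of dChip were not given in the sources used here. A pseudocount of 16 was added before log2, 64 control probe sets were left out, and 12 arrays in 4 groups were fitted together with limma 3.58.1 (lmFit, eBayes) in R 4.3.3, with p-values adjusted by Benjamini-Hochberg over 44937 probe sets. Fold changes on this scale understate those of dim probe sets. Of the probe sets, 34849 had 1 gene symbol, and the 928 with several symbols stood for no gene. The number of arrays limits the precision. Uninjected embryos came from the pool that gave the injected ones, per the labels, and this pairing by number was used for the replicate block. In a check, deviations of paired arrays over all probe sets correlated between -0.0128 and 0.114. Those of injected and uninjected arrays with different numbers correlated between -0.124 and 0.0488, so the ranges overlapped. The fit was tested on simulated data. The genes and lists were chosen with earlier results of these data known. Named were all 10 genes, any list gene that passed, the 2 of each list with the smallest p per experiment, and the 5 genes nearest to Ccna2. Figures were drawn with matplotlib 3.10.9.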

Additional observations from a re-analysis of the deposited data

How the results depend on the processing

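None of the 9 genes passed under any of 24 other settings. The settings were the replicate block of paired pools, 1 or 64 added before log2, the brighter probe sets alone, averaging each gene's probe sets, quantile normalization, median centring, array weights, no intensity trend, only the 6 arrays of a comparison, all 6 uninjected pools as controls, an unpaired t-test and the omission of each array. Of 1008 recomputed values 32 had the opposite sign, in 14 of 45 combinations of gene and comparison. With the replicate block, Cdk1 in Oct4-MO had an adjusted p of 0.24 and Ccna2 of 0.29, and the block changed no adjusted call. The lowest adjusted p was 0.066, for Ccna2 in Oct4-MO against all 6 uninjected pools (log2 fold change -0.46). That setting takes in uninjected pools of the Ccna2-MO experiment, whose Ccna2 level was 0.28 higher, so its value also holds a difference between experiments. In Ccna2-MO the lowest adjusted p was 0.13, for Ccne2 without replicate 3 (-1.03). Cdk1 in Ccna2-MO had 0.06 without replicate 2, and Ccna2 had 0.24 there when its probe sets were averaged. The unpaired t-test gave 4292 probe sets at an unadjusted p under 0.05 in Oct4-MO and 4242 in Ccna2-MO, and 0 in both after Benjamini-Hochberg. It is 1 part of the ranking that the study's methods name, whose permutation-based false discovery rate was not recomputed. Dim signal limits Ccna1, Ccnd2 and the weaker probe sets of Ccnd3. The block could not be fitted between the uninjected groups, an unpaired t-test was not run on the difference between experiments, and the fits on 6 arrays and with all uninjected pools were run for the Oct4-MO and Ccna2-MO comparisons alone. In leave-one-out values of the 22 named regulators per experiment, a check chosen after seeing the data, 2 changed sign in Oct4-MO (Cdk4 and Cdk6) and 0 in Ccna2-MO, and 6 in Oct4-MO and 9 in Ccna2-MO moved by over 1.5 times.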
